A study of Homo sapiens with 12 samples.

Results

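Hypoxia was compared with normoxia in KYSE150, an established cell line of human esophageal squamous carcinoma, in 6 of the 12 messenger RNA libraries of a study that also covered the line KYSE410. Of the 30703 genes listed for KYSE150, the 12692 with a mean of at least 1 FPKM over these 6 libraries entered the comparison. FPKM, the unit that the deposited values match, counts sequenced fragments per kilobase of transcript after scaling to the size of the library. All libraries were labelled WT (wild type) for genotype. The normoxia group held 3 libraries of cells kept at 21% oxygen with a label time of 0 h, and the hypoxia group held 3 libraries of cells kept at 0.5% oxygen for 48 h. The study's design text has 48 h for the normoxic cells too, and the sources do not resolve this difference. If the label times hold, oxygen level and 48 h of culture cannot be told apart in any change below. KYSE410 had the same pair of groups. No label says that the libraries of a group came from separate cultures, so each p-value below measures the spread between these libraries, which may be technical. The filter dropped 18011 genes, and its edge lay between ITGB1-DT, with a mean of 0.9998 FPKM, and RHOT1P3, with 1.0021 FPKM. Among the genes kept, 267 had a normoxia mean under 1 FPKM and 472 had a hypoxia mean under 1 FPKM.

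Cells sense oxygen through the prolyl hydroxylases EGLN1, EGLN2 and EGLN3, which use oxygen to hydroxylate the alpha subunits HIF1A and EPAS1 (HIF-2 alpha), after which the VHL ubiquitin ligase marks the subunits for degradation. When oxygen is scarce the alpha subunits persist, pair with ARNT and bind short hypoxia response elements near genes of glucose uptake, glycolysis, mitophagy and blood vessel growth. Low oxygen also touches pathways outside this axis: the integrated stress response, in which ATF4 drives amino acid genes, sterol-sensing SREBP factors, and the cell cycle. Squamous carcinomas often hold oxygen-poor regions.

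The 6 libraries were alike in summed FPKM (366156 to 413967) and in genes above 0 (23287 to 24667), and read depth is unknown. Normoxia replicate 2 stood apart. The SD of its log2 difference from the other libraries of its group was 0.335, against 0.142 to 0.222 for the others. Across 12077 genes with a transcript length this difference ran against length (Spearman rho -0.635). Normoxia replicates 1 and 3 ran with length (0.522 and 0.577), but replicate 2 is part of their reference, so these values are not independent of it. The hypoxia libraries lay between -0.092 and 0.121. Many, but not all, results that move without normoxia replicate 2 are given both ways. Among those given below with all libraries only, lower calls went from 18 to 24 of 41 splicing regulators and from 14 to 18 of 36 repair genes without it. The median of the EGF receptor list went from 0.26 to 0.00. Epithelial markers KRT8, KRT18, KRT7 and CLDN7 were abundant, with a marker sum of 828 to 1066 FPKM in normoxia and 839 to 873 in hypoxia. Of the 8 markers of this list 6 reached a mean of 1 FPKM. KRT19 (0 FPKM in normoxia, mean 0.0396 in hypoxia) and CDH1 (means 0.372 and 0.102) did not. The defining basal squamous markers KRT5, KRT14, TP63 and DSG3 were at or near 0 in both groups, and the squamous marker sum (287 to 370 FPKM in normoxia, 532 to 575 in hypoxia) came almost wholly from KRT17 with SFN and PERP. Of 5 endothelial markers none reached a mean of 1 FPKM, and of 7 leukocyte and blood markers CD68 alone did, with PTPRC and CD14 near 0. HBB of the same list was at 0 in every normoxia library and at 0.361, 0.151 and 0.497 FPKM in hypoxia. LYZ had 0.145 FPKM in hypoxia replicate 1 and 0 in hypoxia replicates 2 and 3. Outside this list, S100A8 and S100A9 had 1.5 and 2.16 FPKM in hypoxia replicate 1 and 0 in every normoxia library. In hypoxia replicates 2 and 3 both were at 0, apart from 0.0598 FPKM of S100A9 in replicate 2. The source of these reads was not tested. The leukocyte sum was 16 to 18.3 FPKM in normoxia and 28 to 31.6 in hypoxia, and the fibroblast sum 7.99 to 8.20 and 5.65 to 6.18, with COL1A1 and PDGFRB as the 2 of 8 members tested. In a bulk sample fewer cells of a kind and less RNA per cell cannot be told apart.

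limma's moderated test on log2(FPKM + 1), with Benjamini-Hochberg adjustment over the 12692 genes and a threshold of 0.05, called 2981 genes (23.5%) higher and 4925 (38.8%) lower in hypoxia. These shares are the background for each gene list below, and a list whose shares lie near them is not read as a result about its members. The values of the 2 groups did not overlap for 69.6% of all genes tested. A change of at least 1 on the log2 scale was called for 570 genes upward and 980 downward. Over all tested genes the median change was -0.13. Scaling the libraries by their median of ratios gave a median of 0.01 with 3949 genes called higher and 3766 lower, so that 51.2% of calls were higher instead of 37.7%. Small medians of lists are therefore also stated as a difference from this median, and list counts under both scalings where the balance of higher and lower calls turns or a count moves by at least 3 genes.

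**Figure D1:**
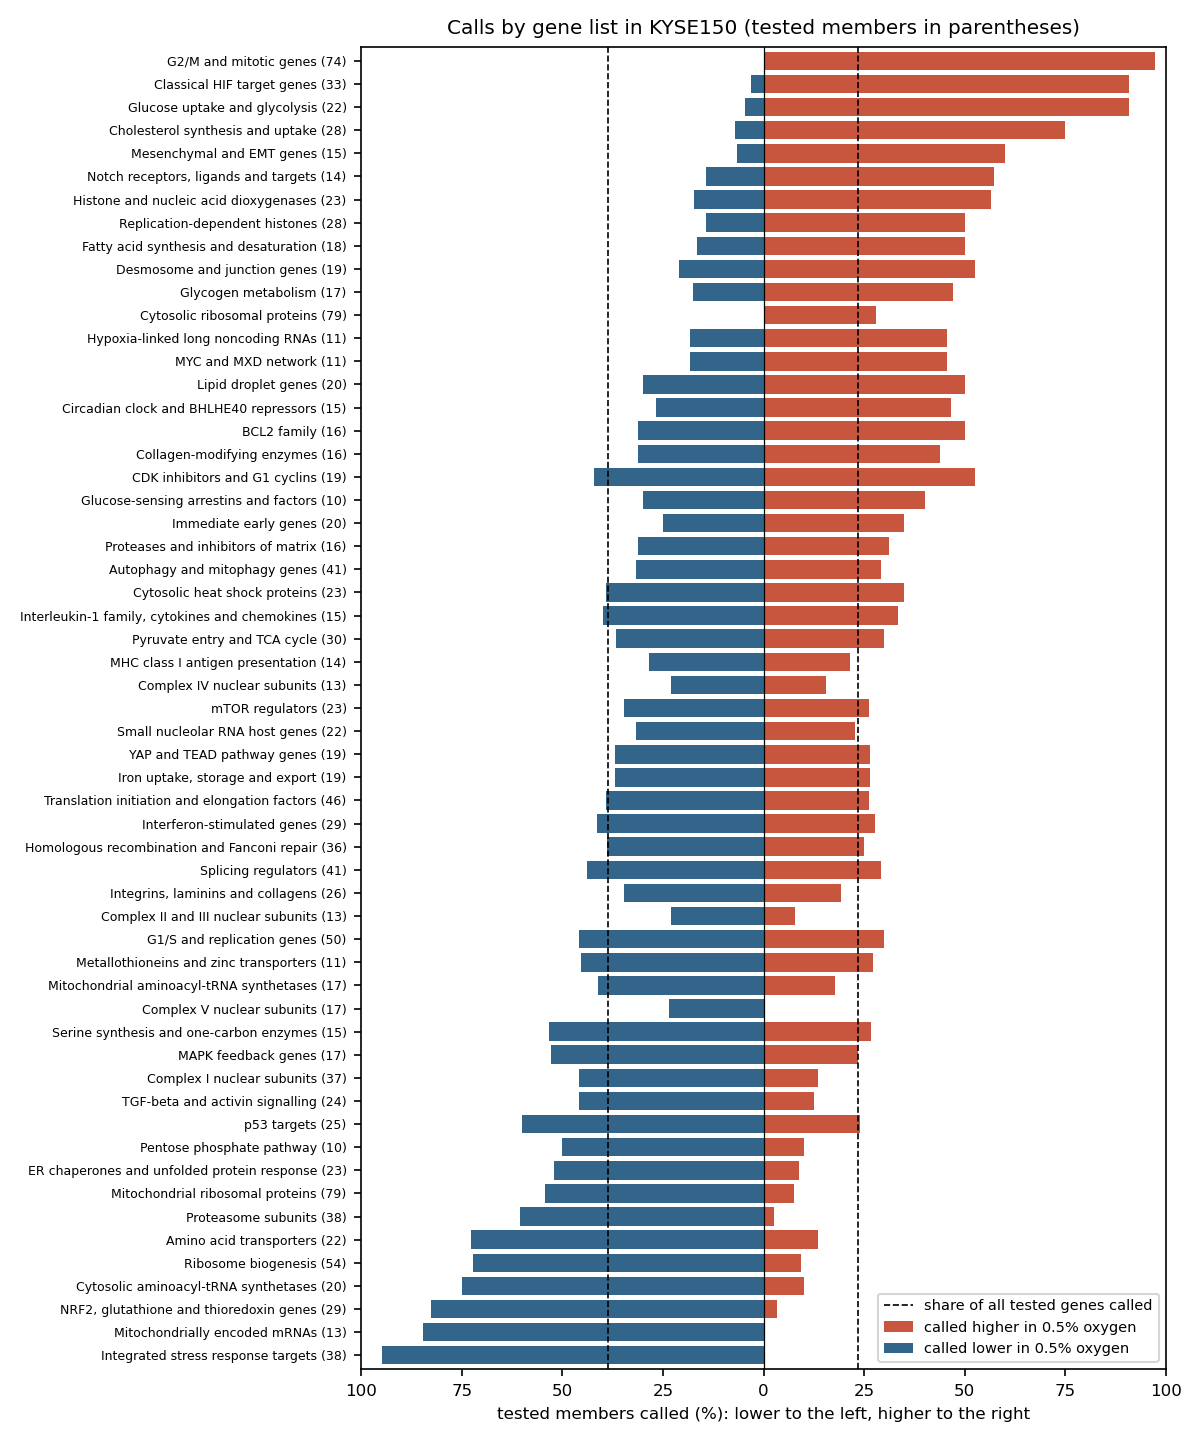
Each row is 1 gene list with at least 10 tested members (number in parentheses). The bars give the percentage of members called higher (right) or lower (left) in 0.5% oxygen, and the dashed lines give the shares over all tested genes, 23.5% higher and 38.8% lower. Mitotic, HIF target, glycolytic and cholesterol genes lie at the top, and integrated stress response, mitochondrially encoded and NRF2 genes at the bottom.

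Messages of the oxygen-sensing machinery changed in both directions. Of 8 tested members of the list of HIF subunits and hydroxylases, 4 were called higher and 3 lower, with a median change of -0.06, or 0.07 relative to all genes, which turned to 0.08 under the median of ratios. VHL, the recognition subunit of the ubiquitin ligase that removes hydroxylated HIF alpha, had 35.7, 31.3 and 36 FPKM in normoxia against 13.6, 12.1 and 13.1 in hypoxia. Each hypoxia library lay under every normoxia library, and the log2 change was -1.34 ± 0.08 (SE; limma, adjusted p = 9.67e-06). EGLN3, a hypoxia-inducible prolyl hydroxylase, had 0.821, 0.705 and 0.799 FPKM in normoxia against 3.94, 3.81 and 3.6 in hypoxia, a rise of 1.43 ± 0.08 (adjusted p = 7.89e-06, limma). EGLN1, the main oxygen sensor of most cells, rose by 0.31, and HIF1AN, the asparaginyl hydroxylase that blocks HIF coactivator binding, by 0.28. EGLN2 had a change of -0.41 that did not pass. EPAS1 messenger RNA fell (42.5, 30.8 and 44.4 FPKM against 21.1, 19.6 and 20.2), with normoxia replicate 2 nearest to the hypoxia libraries, and its change was -0.90, or -1.06 without that library. HIF1A fell by 0.49 (adjusted p = 0.0174, limma), a call that was lost under the median of ratios (-0.33, adjusted p = 0.0718). ARNT, the partner of both, rose by 0.48 with all libraries and 0.36 without normoxia replicate 2. The remaining members, ARNT2 and HIF3A, were under the filter.

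Classical HIF targets rose nearly as a block. Among 33 tested targets 30 were called higher and 1 lower (median 1.86, and 1.84 without normoxia replicate 2), against backgrounds of 23.5% and 38.8%. Their rises ranged from 0.31 for EGLN1 to 3.94 for ANKRD37, an ankyrin repeat protein gene, which had 0.541, 1.09 and 0.63 FPKM in normoxia against 25.4, 29 and 23.2 in hypoxia. KDM3A, a histone H3 lysine 9 demethylase that itself uses oxygen, had 7.42, 5.35 and 6.93 FPKM in normoxia against 57.6, 58.6 and 59.8 in hypoxia. ADM, encoding the vasodilator adrenomedullin, had 16.1, 21.1 and 18.1 against 184, 198 and 174 FPKM. For these 3 genes the groups were far apart, with log2 changes of 3.94 ± 0.14, 2.99 ± 0.11 and 3.27 ± 0.11 (SE). CA9, a membrane carbonic anhydrase that acidifies the cell's surroundings, rose by 2.85, and NDRG1, a gene linked to differentiation and stress, by 3.90. Among the other targets CA12, a relative of CA9, rose from 8 to 17.4 FPKM (1.04), ERO1A, an oxidase of disulfide bond formation, by 1.44, MXI1, a MYC antagonist, by 2.37, and FAM162A, a mitochondrial protein gene, by 1.40. STC2, a secreted glycoprotein that is also an ATF4 target, went the other way with 52, 48.5 and 51.6 FPKM in normoxia against 19.6, 20.3 and 17.4 in hypoxia, and no library of a group reached the other group (-1.37 ± 0.08, adjusted p = 7.08e-06, limma). VEGFA (0.14) and WSB1 (0.20) did not pass. Under the median of ratios limma called both higher (VEGFA 0.30, adjusted p = 0.00822), so that 32 of the 33 were then higher and 1 lower.

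To set these rises beside promoter sequence, the 250 bases upstream of each RefSeq gene start (GRCh38.p14) were searched for the hypoxia response element core, ACGTG or GCGTG, on both strands. Both cores share the letters CGTG, and they can overlap on opposite strands, as in CACGTG. A promoter was matched for 9463 of the 12692 tested genes. The core was in 22 of 28 matched HIF targets (78.6%), against 59.1% of all tested genes and 43.1% of all 27305 promoters searched. Genes called higher by at least 1 held it in 59.7% and genes called lower by at least 1 in 59.0%. A match is a string of letters, not a measured binding site. Stretches of 120 bases upstream of 3 of the strongest targets are shown because they hold the core, in capitals on either strand, 5′ to 3′ on the gene's strand: ANKRD37 (chr4:185396626-185396745, plus strand), ADM (chr11:10304912-10305031, plus strand) and KDM3A (chr2:86441251-86441370, plus strand).
ANKRD37: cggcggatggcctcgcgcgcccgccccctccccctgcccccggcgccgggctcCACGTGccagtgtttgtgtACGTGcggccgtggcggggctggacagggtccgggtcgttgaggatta
ADM: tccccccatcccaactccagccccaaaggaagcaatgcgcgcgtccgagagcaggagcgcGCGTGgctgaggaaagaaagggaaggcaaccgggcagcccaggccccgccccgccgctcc
KDM3A: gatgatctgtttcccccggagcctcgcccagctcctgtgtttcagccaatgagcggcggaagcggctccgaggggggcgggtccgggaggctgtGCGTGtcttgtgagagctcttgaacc
ANKRD37 holds 3 matches in its stretch, including the palindrome CACGTG, while ADM and KDM3A hold 1 each.

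The largest changes reached beyond the HIF list. Above a mean of 5 FPKM the 12 largest rises ran from 5.22 for EDN2 to 3.32 for FUT11, and the 12 largest falls from -4.38 for SLC7A11 to -2.92 for ARG2. EDN2 (chromosome 1, 41478775 to 41484673, minus strand, hg38), encoding the vasoconstrictor peptide endothelin 2, was nearly silent in normoxia (0.394, 0.605 and 0.165 FPKM) and had 44.7, 58.4 and 48.9 FPKM in hypoxia. PCK1 (chromosome 20, 57561080 to 57568112, plus strand), the cytosolic phosphoenolpyruvate carboxykinase of gluconeogenesis, had 0.237, 0.265 and 0.0943 against 31, 36.3 and 30.8 FPKM. Both genes were under 1 FPKM in every normoxia library and above 30 FPKM in every hypoxia library. TXNIP (chromosome 1, 145992435 to 145996600, minus strand), an arrestin-fold inhibitor of glucose uptake, had 3.08, 3.3 and 3.91 FPKM in normoxia against 89.4, 90.4 and 93.4 in hypoxia. FUT11 (chromosome 10, 73772291 to 73780251, plus strand), of the fucosyltransferase family, had 5.48, 3.94 and 5.27 against 58.5, 56.1 and 58.1 FPKM, TMEM45A (chromosome 3, 100492619 to 100577444, plus strand), a transmembrane protein gene, 1.72, 2.74 and 2.17 against 34.5, 33.6 and 35, and CXCR4 (chromosome 2, 136114349 to 136118165, minus strand), the receptor of the chemokine CXCL12, 4.27, 4.4 and 3.71 against 48.8, 54.5 and 49.5. Within each of these genes the hypoxia libraries sat close together, and groups apart were a condition of the choice. The other rises were ANKRD37, NDRG1, PFKFB4, HILPDA, INSIG1 and H2BC21. H2BC21 (3.32) encodes an H2B histone and shares near-identical sequence with other histone genes, so reads may be split between copies.

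**Figure D2:**
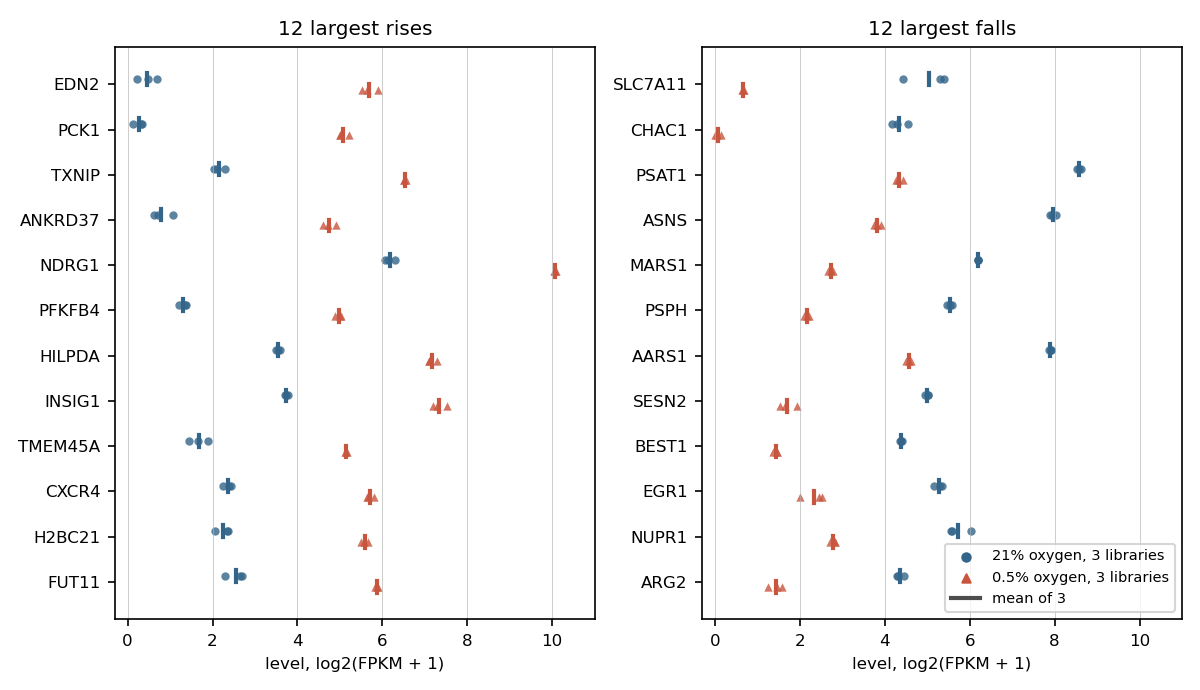
Level of the 12 genes with the largest rise (left) and the 12 with the largest fall (right) in log2(FPKM + 1). Circles are the 3 libraries at 21% oxygen, triangles the 3 at 0.5% oxygen, and short bars the group means. Groups that do not overlap were a condition of the choice.

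On the falling side, 7 of the 12 genes (SLC7A11, CHAC1, PSAT1, ASNS, PSPH, SESN2 and NUPR1) were members of the integrated stress response list and 2 (MARS1 and AARS1) of the tRNA synthetase list, both described below. The other 3 were EGR1, BEST1 and ARG2. EGR1 (chromosome 5, 138465490 to 138469315, plus strand), an immediate early transcription factor gene, had 34.5, 38.7 and 40 FPKM in normoxia against 4.5, 4.71 and 3.01 in hypoxia. BEST1 (chromosome 11, 61949821 to 61965515, plus strand), a chloride channel gene, had 20, 19.4 and 20.1 against 1.77, 1.74 and 1.58 FPKM. ARG2 (chromosome 14, 67619798 to 67651720, plus strand), the mitochondrial arginase, had 18.7, 20.8 and 18.6 against 1.98, 1.38 and 1.76 FPKM. Their changes were -2.95 ± 0.14, -2.95 ± 0.08 and -2.92 ± 0.10 (SE).

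Messages of glucose handling were raised from the transporter to lactate export. Of 22 genes of glucose uptake and glycolysis, 20 were called higher and 1 lower (median 1.44, or 1.57 relative to all genes). At the entry SLC2A1, the widespread glucose transporter, rose by 1.86. SLC2A3, the neuronal-type glucose transporter, had 0.615, 0.498 and 0.727 FPKM in normoxia against 10.7, 12.9 and 10.8 in hypoxia (2.94), with the caution that it shares sequence with SLC2A14. HK2, the inducible hexokinase, had 17.9, 13.4 and 17.5 against 101, 107 and 99.2 FPKM (2.60), whereas HK1, the constitutive hexokinase, rose by 0.29. At the phosphofructokinase step the isoforms parted. PFKP had 37.6, 38.2 and 35.5 against 101, 101 and 101 FPKM (1.42), PFKL rose by 1.04, and PFKM had 38.5, 37.6 and 40.8 against 38.5, 40.3 and 39 FPKM, overlapping, with a change of 0.01. PFKFB4, which makes the activator fructose 2,6-bisphosphate, rose by 3.65, and its relative PFKFB3 by 0.60. Further down, ALDOC had 8.78, 9.76 and 9.67 against 82, 80 and 75.2 FPKM (2.94) and ENO2 17.1, 16.9 and 16.3 against 132, 131 and 127 (2.88). The more abundant isoforms ALDOA and ENO1 rose by 2.46 and 0.88, with ENO1 among genes that have processed pseudogenes, as do GAPDH (1.27) and TPI1 (1.43). BPGM, which diverts 1,3-bisphosphoglycerate to 2,3-bisphosphoglycerate, was the member that fell (11.2, 12.7 and 10.7 FPKM against 5.51, 6.52 and 5.14, -0.90). LDHA, which reduces pyruvate to lactate, rose by 1.99, and SLC16A3, the lactate exporter, by 0.88.

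**Figure D3:**
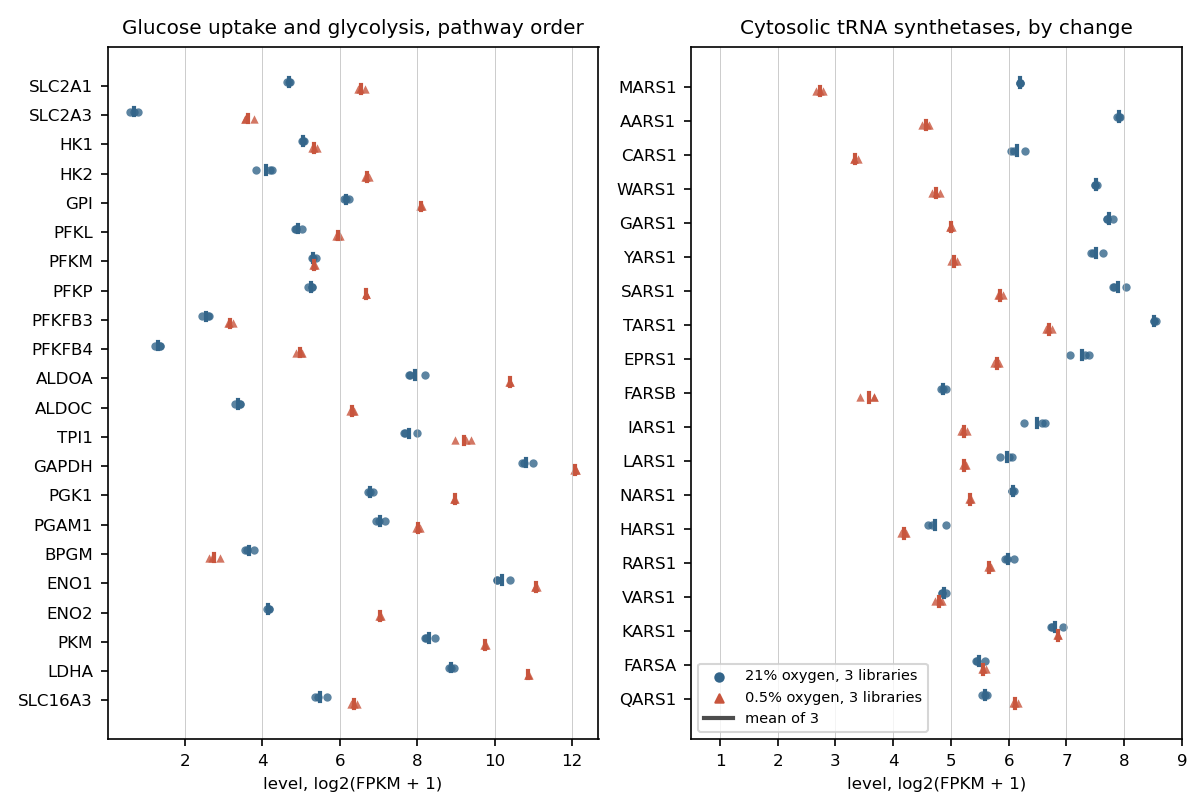
Level in log2(FPKM + 1) of 22 genes of glucose uptake and glycolysis in pathway order (left) and of 19 of the 20 tested cytosolic tRNA synthetase genes ordered by their change (right), the other, called higher, not being shown. Circles are 3 libraries at 21% oxygen, triangles 3 at 0.5% oxygen, and short bars group means. On the left PFKM overlaps and BPGM falls, and on the right 15 genes fall and QARS1 rises.

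Beyond glycolysis, kinase genes of pyruvate entry were higher. All 4 pyruvate dehydrogenase kinases, which switch off entry of pyruvate into the tricarboxylic acid (TCA) cycle, were called higher. PDK1 rose from 10.4 ± 1.65 to 27.1 ± 1.64 FPKM (SD, n = 3), PDK2 by 1.18, PDK3 by 1.30 and PDK4 by 0.91. The kinases' target PDHA1 had a change of -0.07 with overlapping groups, and the mitochondrial pyruvate carrier MPC1 fell by 0.84. Over the list of pyruvate entry and TCA genes 9 of 30 were called higher and 11 lower, near the shares of all tested genes. Under the median of ratios 11 were called higher and 6 lower. The list median of -0.12, 0.01 relative to all genes, turned to 0.04 under that scaling. The extremes of the list lay at IDH1 and SDHA. IDH1, the cytosolic isocitrate dehydrogenase, had 107, 114 and 110 FPKM in normoxia against 22.9, 24.5 and 26 in hypoxia, a clear separation (-2.13 ± 0.07, adjusted p = 7.67e-07, limma). SDHA, the flavoprotein of succinate dehydrogenase, had 62.6, 67.3 and 57.6 against 150, 139 and 112 FPKM (1.08 ± 0.12), while SDHB, SDHC and SDHD had changes of -0.12, 0.00 and 0.01 that did not pass.

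Of 17 glycogen genes 8 were called higher and 3 lower, or 8 and 5 without normoxia replicate 2. GBE1, the branching enzyme, had 8.2, 8.41 and 8.94 FPKM in normoxia against 48, 50.7 and 51.1 in hypoxia (2.42 ± 0.07), and the groups were wide apart. GYS1, the muscle-type glycogen synthase, rose by 0.99, UGP2, which makes UDP-glucose, by 0.96, PGM1 by 0.57, and the phosphatase targeting subunits PPP1R3B and PPP1R3C by 1.69 and 1.47. PYGL, the liver-type phosphorylase, rose by 1.17, whereas PYGB, the brain type, fell by 0.43 and GYG1, the glycogen primer, fell by 0.78. In the pentose phosphate pathway 1 of 10 genes was called higher and 5 lower, and under the median of ratios 3 and 2. TKT, transketolase, was the member that rose (0.54). Of the glucose-sensing arrestins, ARRDC3 rose by 1.32 and ARRDC4 by 1.00 beside TXNIP, while the glucose-sensing factors MLXIPL (-0.33) and MLXIP (-0.31) fell.

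Genes of the integrated stress response fell almost as a block. This response slows translation and, through the transcription factor ATF4, raises amino acid synthesis and uptake. Of 38 tested targets limma called 36 lower and 0 higher (0 at an unadjusted p under 0.05), against backgrounds of 38.8% and 23.5% (median -1.95, and -2.01 without normoxia replicate 2). The transcription factors fell with their targets. ATF4 had 195, 247 and 214 FPKM in normoxia against 50.4, 80.4 and 78.1 in hypoxia, DDIT3 (CHOP) 76.1, 102 and 73.8 against 17.6, 17.7 and 16.9, and CEBPG, an ATF4 partner, 49.7, 51.2 and 52.1 against 12.6, 11.8 and 13.2. For each of these factors the groups stood apart, with changes of -1.66, -2.19 and -1.94. TRIB3, a feedback inhibitor of ATF4, fell by 2.39, and ATF3 fell by 1.31. CHAC1, which degrades glutathione, went from 18.4, 22.5 and 16.9 FPKM to 0.0948, 0.00556 and 0.0417 and was near 0 in hypoxia. FGF21, a secreted metabolic hormone, had 3.71, 4.63 and 3.44 FPKM in normoxia and was listed at 0 in all 3 hypoxia libraries. ADM2 fell from 5.37 to 0.374 FPKM while its relative ADM rose. PPP1R15A, which reverses the response by guiding a phosphatase to EIF2S1, had overlapping groups (35.9, 40.7 and 34.2 against 40.9, 47 and 39.1 FPKM), and neither it nor VEGFA was called. Under the median of ratios limma called both higher (0.35 and 0.30), so that 2 of the 38 were then higher.

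Amino acid supply genes were among those that fell. In serine synthesis PHGDH fell by 1.49, PSAT1 fell by 4.24 and PSPH fell by 3.37, the latter with reads that may be shared with a near-identical copy. PSAT1 had 378, 392 and 365 FPKM in normoxia against 18.7, 18.1 and 20.5 in hypoxia. Over the list of serine and folate one-carbon enzymes 8 of 15 were called lower and 4 higher. Among them the mitochondrial MTHFD2 (-1.47), SHMT2 (-1.07), ALDH1L2 (-1.65) and GCSH (-1.33) were lower, and TYMS, thymidylate synthase (0.68), and MTHFD1L (0.54) were higher. Messages of both transsulfuration steps fell, with CBS at -2.58 and CTH at -2.39. ASNS, asparagine synthetase, went from 235, 262 and 244 to 13.1, 12.5 and 14 FPKM. Of 22 amino acid transporters 16 were called lower and 3 higher. SLC7A11, which imports cystine for glutathione, had 38.2, 20.5 and 41.2 FPKM in normoxia against 0.544, 0.576 and 0.602 in hypoxia, and normoxia replicate 2 was the lowest of its group. SLC3A2, the heavy chain shared by several transporters, had 409, 501 and 418 against 75.6, 78.5 and 74.5 FPKM, and SLC1A5, a glutamine importer, 132, 144 and 131 against 25.5, 23.6 and 23.9. The members that rose were SLC6A6, the taurine transporter (1.35), SLC36A4 (0.73) and SLC1A1 (0.31).

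The tRNA synthetases that charge amino acids in the cytosol fell with them. Of 20 cytosolic synthetases 15 were called lower and 2 higher, or 4 higher without normoxia replicate 2 (median -1.27). MARS1 (methionine) had 72, 72.4 and 72.6 FPKM in normoxia against 5.37, 5.62 and 5.87 in hypoxia, AARS1 (alanine) 233, 240 and 241 against 22.9, 21.5 and 23.7, and CARS1 (cysteine) 64.7, 76.6 and 67.1 against 9.03, 9.51 and 8.97. No hypoxia library of these genes came near normoxia. WARS1, GARS1, YARS1 and SARS1 were called lower with changes of -2.77, -2.74, -2.46 and -2.04. QARS1 (glutamine) rose by 0.53, while KARS1, FARSA and VARS1 had changes of 0.04, 0.07 and -0.09 that did not pass. The mitochondrial synthetases did not follow as a list, with 7 of 17 called lower, 3 higher and a median of -0.14 (-0.01 relative to all genes), and 4 called lower and 6 higher with a median of 0.00 under the median of ratios. NARS2 (-1.14) and MARS2 (-1.11) were the lowest of them and WARS2 (0.71) the highest. XPOT, which exports tRNAs from the nucleus, fell by 1.44.

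ATF4 with a C/EBP partner binds composite elements that share the letters TGATGNAA, where N is any base. On both strands of the 250 upstream bases this string was in 4 of 31 matched integrated stress response targets (12.9%), 2 of 16 matched cytosolic synthetases (12.5%) and 3 of the 8 matched largest falls (37.5%), against 1.25% of all tested genes and 3.19% of all promoters. These counts are small and not separate, since the 3 falls with the string, CHAC1, ASNS and AARS1, are also members of the other 2 sets. Stretches of 4 falling genes, which hold the match in capitals, are shown 5′ to 3′ on the gene's strand in GRCh38.p14, with TTGCATCA for the match on the opposite strand: CHAC1 (chr15:40953221-40953340, plus strand), ASNS (chr7:97872417-97872536, minus strand), AARS1 (chr16:70289634-70289753, minus strand) and FGF21 (chr19:48755404-48755523, plus strand).
CHAC1: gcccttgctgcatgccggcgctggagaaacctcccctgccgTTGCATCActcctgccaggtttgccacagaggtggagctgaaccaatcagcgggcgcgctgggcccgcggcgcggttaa
ASNS: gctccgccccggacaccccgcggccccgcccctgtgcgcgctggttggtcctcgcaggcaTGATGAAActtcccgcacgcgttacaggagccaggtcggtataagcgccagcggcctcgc
AARS1: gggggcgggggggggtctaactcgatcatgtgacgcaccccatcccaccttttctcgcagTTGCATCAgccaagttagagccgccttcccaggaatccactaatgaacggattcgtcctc
FGF21: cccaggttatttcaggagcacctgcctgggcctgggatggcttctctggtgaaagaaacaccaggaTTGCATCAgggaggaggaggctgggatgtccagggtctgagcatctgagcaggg
CHAC1, AARS1 and FGF21 carry the identical run TTGCATCA, and ASNS carries TGATGAAA.

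Mitotic genes were higher in hypoxia. In the list of G2/M and mitotic genes limma called 72 of 74 higher and 0 lower, also 0 at an unadjusted p under 0.05 (median 0.99, and 0.84 without normoxia replicate 2). ANLN, an actin-binding protein of the cleavage furrow, had 30.8, 22.8 and 30.4 FPKM in normoxia against 188, 211 and 208 in hypoxia. CDC20, which activates the anaphase-promoting complex, had 21.6, 24.3 and 20.7 against 101, 92 and 98.6 FPKM, and CDCA3, an adaptor for degradation of the mitotic inhibitor WEE1, 7.04, 6.67 and 5.59 against 36.1, 44.6 and 40.4. Normoxia replicate 2 was the lowest library of its group for ANLN, and the hypoxia values lay above all 3 normoxia values. Changes for these genes were 2.82 ± 0.12, 2.08 ± 0.08 and 2.48 ± 0.11 (SE), and 2.68, 2.15 and 2.50 without that replicate. KIF20A, a kinesin of cytokinesis, rose by 2.46, INCENP, the scaffold of the chromosomal passenger complex, by 2.29, and HJURP, which loads the centromeric histone CENPA, by 1.92. AURKB, the kinase of the INCENP complex, rose by 0.64 and BIRC5, another of its subunits, by 0.45. SPC25 (0.05) and MYBL2 (0.13) were not called.

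The 250 upstream bases of the mitotic genes were searched for CCAAT, the letters of the NF-Y box, and for TTTGAA, a cell cycle genes homology region through which mitotic genes are repressed outside division. CCAAT was in 46 of 64 matched mitotic genes (71.9%), against 35.6% of all tested genes and 33.0% of all promoters. TTTGAA was in 31 of 64 (48.4%), against 8.11% and 13.6%. Both strands were read, and each string was counted on its own, whether or not it met the other. For 3 genes with large rises and both strings, 120 bases are shown on the gene's strand in GRCh38.p14 with the matches in capitals, where ATTGG and TTCAAA are the same strings on the opposite strand: INCENP (chr11:62123891-62124010, plus strand), CDC20 (chr1:43358822-43358941, plus strand) and HJURP (chr2:233854594-233854713, minus strand).
INCENP: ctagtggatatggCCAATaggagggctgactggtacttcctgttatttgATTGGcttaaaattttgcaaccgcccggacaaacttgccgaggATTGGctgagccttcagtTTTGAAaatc
CDC20: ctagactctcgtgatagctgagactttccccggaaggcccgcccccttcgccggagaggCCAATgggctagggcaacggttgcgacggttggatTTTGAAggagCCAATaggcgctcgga
HJURP: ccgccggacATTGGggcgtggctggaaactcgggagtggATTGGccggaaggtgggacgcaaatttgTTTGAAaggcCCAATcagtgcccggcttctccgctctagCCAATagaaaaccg
The stretches hold 4, 3 and 5 matches, with both strings in each.

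Replication genes were called in both directions. Of 50 G1/S and replication genes 15 were called higher and 23 lower, with a median of -0.13 that equals the median of all genes and turned to 0.03 under the median of ratios (19 higher, 16 lower). CDT1, a licensing factor, rose by 1.36, and the ribonucleotide reductase subunit RRM2 by 1.05. Lower were CDC25A (-1.14), CDC6 (-0.90) and the clamp loader subunit RFC4 (-0.87). CCND1, the cyclin that drives entry into the cycle and lies in a region often amplified in esophageal squamous carcinoma, had 43.1, 38.7 and 43 FPKM in normoxia against 10.1, 8.66 and 9.04 in hypoxia (-2.05 ± 0.08, adjusted p = 1.45e-06, limma). CCND3 fell by 1.22 and their kinase CDK6 fell by 1.82. The inhibitors of these kinases mostly went the other way. CDKN1A rose by 1.24, CDKN1C by 1.62, CDKN2D by 1.43, CDKN2C by 0.93 and CDKN1B by 0.65, while CDKN2B fell by 1.14 and CDKN2A fell by 0.37. CCNG2, an atypical cyclin linked to cell cycle arrest, had 0.784, 0.775 and 0.879 FPKM in normoxia against 13.5, 15 and 13.9 in hypoxia (3.06). Of 36 genes of homologous recombination, Fanconi and mismatch repair, 14 were called lower and 9 higher, near the shares of all tested genes. Under the median of ratios 11 were called lower and 13 higher. PMS2 (-1.20) and XRCC3 (-1.12) lay at the low end and RMI2 (0.81) and RAD54L (0.80) at the high end. Of 53 replication-dependent histone genes listed, 28 passed the filter, 14 of them called higher (18 under the median of ratios) and 4 lower. The histone calls are uncertain, since capture on poly(A) beads favours polyadenylated messages and copies are near identical.

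Ribosome biogenesis genes were mostly lower. Of 54 ribosome biogenesis genes 39 were called lower and 5 higher, or 40 and 8 without normoxia replicate 2 and 31 and 7 under the median of ratios (median -0.61, or -0.47 relative to all genes). RRS1 had 24.7, 30.4 and 24.1 FPKM in normoxia against 5.07, 4.27 and 5.64 in hypoxia, NOP2, a ribosomal RNA methyltransferase, 55.7, 60.2 and 58.4 against 14, 13.9 and 14.8, and NOP58, a core protein of box C/D particles, 92.7, 96 and 83.2 against 23.3, 25.4 and 25.1. The 2 groups of each gene were well apart, with changes of -2.19, -1.95 and -1.84. RNA polymerase I subunits POLR1A (-1.17) and POLR1B (-1.33) fell. Rises in this list were small, from 0.20 for TCOF1 to 0.46 for NPM1, which has many processed copies. Of 79 cytosolic ribosomal protein genes limma called 22 higher and 0 lower, also 0 at an unadjusted p under 0.05 (median 0.30). The share higher was near the background of 23.5%, and the count depended on normoxia replicate 2 and on the scaling. Without that library 77 of the 79 were called higher with a median of 0.44, and under the median of ratios 58. Under quantile normalization 34 were called higher and 4 lower, with a median of 0.13 (0.14 relative to all genes). RPL7A had the largest change (1300, 1640 and 1255 FPKM against 2534, 2498 and 2456, 0.85). Ribosomal protein messages are short and have many processed pseudogenes, and read sharing was not tested.

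**Figure D4:**
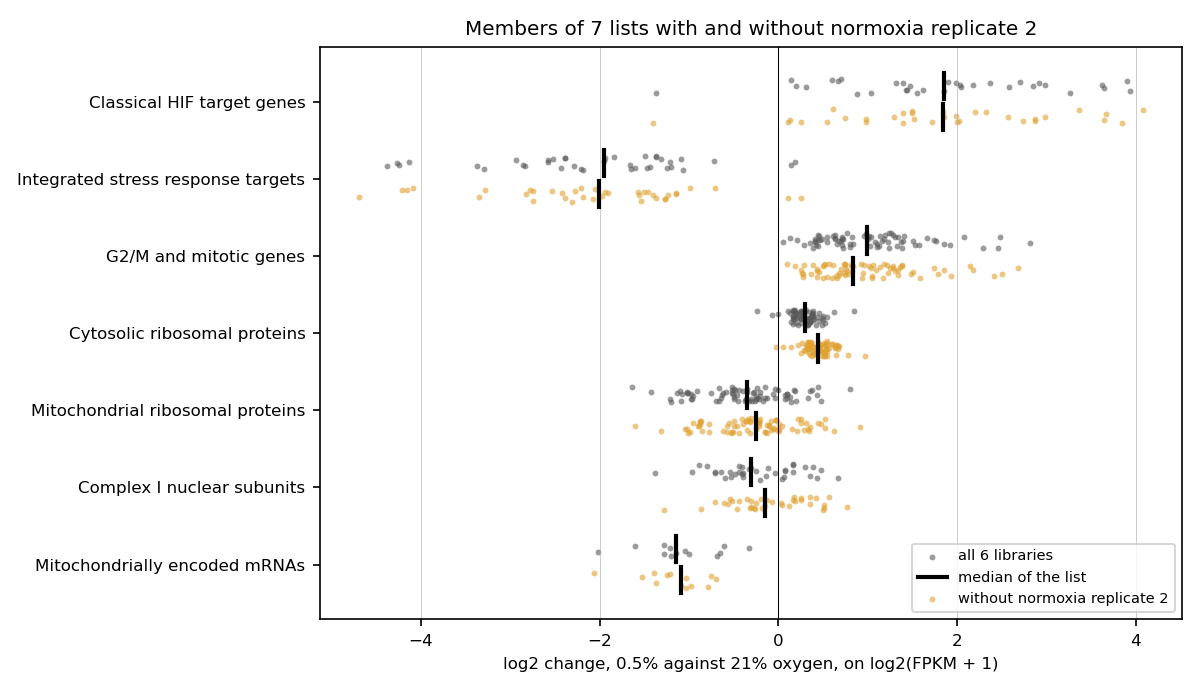
Log2 change of each tested member of 7 gene lists, hypoxia against normoxia, on log2(FPKM + 1). Grey points use all 6 libraries, orange points leave out normoxia replicate 2, and black bars are list medians. The medians of HIF targets (1.86 and 1.84) and stress response targets (-1.95 and -2.01) moved little, and that of cytosolic ribosomal proteins went from 0.30 to 0.44.

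Translation factors were called in both directions, at shares near the 23.5% higher and 38.8% lower of all tested genes. Of 46 tested, 12 were called higher, 19 without normoxia replicate 2, and 18 lower (17 and 17 under the median of ratios, where the median went from -0.13 to 0.03). EIF5, which triggers GTP hydrolysis at the start codon, had 69.1, 63.9 and 69.8 FPKM in normoxia against 14.6, 11.8 and 14.7 in hypoxia, and EIF2S2, the beta subunit of EIF2, 218, 248 and 207 against 53.5, 56.9 and 56.7. EIF4EBP1, the repressor of cap binding that mTOR inactivates, had 232, 316 and 232 against 56.7, 53.4 and 55.9 FPKM. The groups of these 3 genes did not overlap, and EIF5 fell by 2.23 and EIF2S2 fell by 1.99. On the rising side EIF4A2 had 122, 123 and 121 against 384, 387 and 394 FPKM (1.66), EIF4B rose by 1.15, EEF2 by 0.84 and its inhibitory kinase EEF2K by 0.92. Upstream, mTOR regulators did not lean one way as a list. Of 23 tested, 6 were called higher and 8 lower (median 0.03), and 9 and 5 under the median of ratios. Among them the mTOR inhibitors DDIT4 and DEPTOR rose by 1.62 and 1.38 and TSC2 rose by 0.49. SESN2, a leucine sensor and ATF4 target, fell by 3.29 (29.6, 31.4 and 31.5 FPKM against 2.79, 2.13 and 1.87).

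Messages of the respiratory chain were lower from the mitochondrial genome and mixed from the nucleus. Mitochondrially encoded messages made up 5.26% to 6.89% of summed FPKM in normoxia and 2.73% to 3.29% in hypoxia, with normoxia replicate 2 the lowest of its group. Of the 13 messages limma called 11 lower and 0 higher, also 0 at an unadjusted p under 0.05, and 13 of 13 lower without that replicate (median -1.14 and -1.09). CYTB, of complex III, fell most, from 794, 704 and 714 FPKM to 200, 147 and 199 (-2.02 ± 0.13), and ND4L and ND5 were the members not called with all libraries. The nuclear subunits depended on the same library and on scaling. For complex I 5 of 37 were called higher and 17 lower (median -0.31, or -0.18 relative to all genes), 12 and 18 without normoxia replicate 2, and 7 and 9 under the median of ratios. NDUFC2 fell by 1.38 and NDUFV3 fell by 0.97, and NDUFA7 rose by 0.67. Complexes II and III had 1 of 13 higher and 3 lower, complex IV 2 of 13 and 3, and complex V had 4 of 17 lower and 0 higher in limma's test (0 at an unadjusted p under 0.05), with ATP5F1D (-0.74), UQCR11 (-1.06) and UQCRFS1 (-0.77) among the falls and COX6B1 (0.58) the larger rise of complex IV. Without normoxia replicate 2, 4 genes of complexes II and III and 5 of complex IV were called higher, and 7 of complex V lower. Under the median of ratios 3 of complex IV were called higher and 0 were called lower by limma (0 at an unadjusted p under 0.05). The medians of complexes II and III (-0.12) and IV (-0.10) turned to 0.05 and 0.06 under the median of ratios. COX4I1, the usual regulatory subunit of complex IV, had overlapping groups (-0.10), and NDUFA4L2, a HIF target that replaces NDUFA4 in some cells, was low (1.11, 1.42 and 1.12 FPKM against 1.61, 1.68 and 1.77). Of 79 mitochondrial ribosomal proteins 43 were called lower and 6 higher (median -0.35), or 30 and 11 under the median of ratios (median -0.19), with MRPS10 (53.3, 58 and 53.8 FPKM against 16.6, 16 and 18.3) and MRPL46 the largest falls and MRPL9 the largest rise (0.80). Without normoxia replicate 2 the counts were 47 and 16.

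Sterol genes rose together with genes that restrain them. Of 28 genes of cholesterol synthesis and uptake 21 were called higher and 2 lower (median 0.64, or 0.77 relative to all genes). INSIG1, which holds the SREBP escort SCAP in the endoplasmic reticulum, had 12.1, 12.8 and 12.2 FPKM in normoxia against 156, 184 and 145 in hypoxia, and INSIG2 had 4.99, 4.62 and 4.4 against 30.7, 34.4 and 33.6. Both genes had hypoxia libraries far above normoxia (3.60 and 2.58). Among the enzymes, MSMO1, an oxygen-consuming sterol demethylase, had 4.03, 4.34 and 4.25 against 42.7, 54.7 and 40 FPKM (3.16 ± 0.12), MVD rose by 1.53, MVK by 1.47, FDFT1 by 1.46 and HMGCS1 by 1.27. The oxygen-consuming SQLE and CYP51A1 rose by 0.61 and 0.57. PMVK and LBR were called lower (-0.54 and -0.32), and both calls were lost under the median of ratios (adjusted p = 0.0803 and 0.12, limma).

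Genes of fatty acid synthesis followed in part. Of 18 tested genes 9 were called higher and 3 lower. SREBF1, the transcription factor of the pathway, rose from 12.7 ± 0.798 to 37.2 ± 0.926 FPKM (1.48), SCD, the oxygen-dependent stearoyl desaturase, by 1.02, FADS1 by 1.03 and FASN by 0.84. ME1, which supplies NADPH, fell by 0.88, with FADS3 (-0.78) and ELOVL6 (-0.46). Lipid droplet genes had 10 of 20 higher and 6 lower. HILPDA, an inhibitor of the lipase PNPLA2, had 10.3, 11 and 10.7 FPKM in normoxia against 137, 155 and 135 in hypoxia (chromosome 7, 128455849 to 128458418, plus strand). The droplet coat genes PLIN2 and PLIN3 rose by 1.82 and 1.58, CPT1A, the gate of fatty acid oxidation, by 0.79, and DGAT2 (-0.73) and MGLL (-0.55) fell.

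Redox defence fell. Of 29 genes of the NRF2, glutathione and thioredoxin list 24 were called lower and 1 higher (median -0.83). NFE2L2, encoding NRF2 itself, fell by 0.79 (58.2, 57.7 and 59.7 FPKM against 30.7, 32 and 38). TXNRD1, thioredoxin reductase, had 198, 162 and 205 against 41, 34.7 and 37.7 FPKM, SRXN1 63.1, 70.5 and 63.8 against 17.6, 16.7 and 16.3, and NQO1, a quinone reductase, 98.1, 120 and 98.3 against 48.1, 48.7 and 47.4. The groups were apart for each, with changes of -2.28, -1.90 and -1.11. GCLM (-1.09) and GCLC (-0.83), the subunits of the glutathione-making ligase, fell. TRIM16L (-2.58) and TRIM16 (-1.91) fell and share sequence with each other, as do AKR1C1, AKR1C2 and AKR1C3. HMOX1, heme oxygenase 1, was the member that rose (2.77, 3.47 and 2.64 FPKM against 8.31, 7.98 and 7.36, 1.17), while HMOX2 fell by 1.25 and BLVRB, a biliverdin reductase, fell by 1.08. In the iron list 5 of 19 were called higher and 7 lower, near the shares of all tested genes (8 and 6 under the median of ratios). TFRC, the transferrin receptor, was among the falls (-0.58), and the list median of -0.17 was -0.03 relative to all genes. FTH1 (-0.38) and FTL (-0.17), the ferritin chains, were not called, and FTH1 has processed copies. Of 11 metallothioneins and zinc transporters 3 were called higher and 5 lower (4 and 3 under the median of ratios).

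Stress and survival genes were divided. Of 25 p53 targets 15 were called lower and 6 higher (9 and 6 under the median of ratios). GADD45A had 49.3, 61.7 and 50.3 FPKM in normoxia against 7.6, 5.81 and 6.5 in hypoxia (-2.84), and PMAIP1 (NOXA), a trigger of apoptosis, 23.6, 24.9 and 24.4 against 5.9, 5.87 and 5.53 (-1.90). Both are known to respond to stress signals other than p53. On the other side BTG2 rose by 1.74, POLH, a translesion polymerase, by 1.39 and CDKN1A from 17.4, 19.7 and 17.4 FPKM to 44.4, 46.9 and 41.7. In the BCL2 family 8 of 16 were called higher and 5 lower. BIK rose from 1.25 to 8.64 FPKM (2.10) and BNIP3 and BNIP3L, which double as mitophagy receptors, by 2.92 and 2.03, whereas the survival factor BCL2L1 fell by 1.15 and MCL1 rose by 0.46. Autophagy genes had 12 of 41 higher and 13 lower (14 and 10 under the median of ratios, where the median went from -0.09 to 0.07). ATG14 rose by 1.45, ATG2A by 1.34 and ULK1, the initiating kinase, by 0.74, while ATG101, a subunit of the ULK1 complex, fell by 1.19 and MAP1LC3B fell by 0.51.

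Chaperone genes of the endoplasmic reticulum leaned lower and those of the cytosol split. In the former list 12 of 23 were called lower and 2 higher (9 and 4 under the median of ratios, 15 and 4 without normoxia replicate 2). MANF had 95.8, 120 and 92.8 FPKM in normoxia against 35.8, 33 and 31.5 in hypoxia, HERPUD1, a helper of protein disposal, 68.2, 73.4 and 67.8 against 29, 27.3 and 25.3, and HSPA5, the main chaperone, 493, 559 and 511 against 355, 385 and 349. Their changes were -1.59, -1.33 and -0.52, and ERO1A and CALR (0.42) were the members that rose. Of 23 cytosolic heat shock genes 8 were called higher and 9 lower (9 and 5 under the median of ratios). HSPA8, the constitutive HSP70, had 172, 186 and 171 against 596, 595 and 601 FPKM (1.75), HSP90AA1 and HSP90AB1 rose by 0.77 and 0.82, and HSPA1A and HSPA1B, near-identical copies whose reads cannot be parted with certainty, by 1.79 and 1.85. HSPA9, the mitochondrial HSP70, fell by 1.48 and HSPA4 fell by 0.90. Of 38 proteasome genes 23 were called lower and 1, PSMB4, higher (13 and 2 under the median of ratios, 7 higher without normoxia replicate 2, median -0.32 or -0.19 relative to all genes), with the activator gene PSME3 (-1.32) and the immunoproteasome subunit PSMB9 (-0.95) lowest.

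Splicing regulators were called in both directions. Over 41 genes 12 were called higher and 18 lower (15 and 16 under the median of ratios), and the median of -0.17 was -0.04 relative to all genes. TRA2B had 96.1, 107 and 102 FPKM in normoxia against 18, 18.1 and 20.8 in hypoxia (-2.36), and the SR protein genes SRSF3 (-1.40), SRSF6 (-1.32), SRSF7 (-1.30), SRSF8 (-1.29) and SRSF10 (-0.99) fell. The kinases that phosphorylate SR proteins rose, CLK3 from 13.4, 13.2 and 14.3 FPKM to 56, 57.9 and 57.8, CLK1 by 1.72, CLK4 by 0.62 and CLK2 by 0.51. HNRNPA1, which has many processed copies, rose by 1.21, and HNRNPL by 1.00, while HNRNPH3 fell by 1.75. Among 22 host genes of small nucleolar RNAs 5 were called higher and 7 lower, 9 and 9 without normoxia replicate 2, and 8 and 6 under the median of ratios. SNHG7 had 24.5, 40.1 and 27.2 against 127, 124 and 128 FPKM (2.04) and SNHG17 62.6, 85.9 and 61.9 against 10.2, 11.3 and 9.8 (-2.62), so that individual host genes moved far in opposite directions. Of 11 long noncoding RNAs linked to hypoxia 5 were called higher (8 under the median of ratios) and 2 lower. MIR210HG, the host of the hypoxia-induced miRNA miR-210, had 1.04, 1.39 and 1.03 against 14.8, 14.2 and 16.4 FPKM (2.91), H19, an imprinted RNA, 117, 133 and 118 against 524, 525 and 507 (2.07), and NEAT1 and MALAT1, nuclear RNAs, rose by 1.08 and 1.01. SNHG11 fell by 1.67. The values concern the host transcript and say nothing of the mature miRNA.

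Enzymes that use oxygen to modify chromatin were mostly higher. Of 23 histone and nucleic acid dioxygenases 13 were called higher and 4 lower (median 0.39, or 0.52 relative to all genes). After KDM3A, JMJD6 had 6.42, 6.61 and 5.91 FPKM in normoxia against 28.6, 29.8 and 25.5 in hypoxia and KDM4B 3.68, 3.09 and 3.74 against 17.7, 15.9 and 16.4. Both rose without overlap, by 1.98 ± 0.09 and 1.97 ± 0.09. KDM5B, a lysine 4 demethylase, rose by 1.07, and KDM3B and KDM7A by 0.92 and 0.84. Lower were RIOX2 (-0.93), RIOX1 (-0.90), KDM4A (-0.79) and TET3 (-0.59). In the MYC network MYC itself had overlapping groups (0.10), and its antagonists MXI1, MXD3 (2.45, 3.31 and 3.57 FPKM against 17.1, 15.7 and 16.6) and MXD1 rose by 2.37, 2.10 and 1.34, while MAX, their shared partner, fell by 0.71. The circadian repressor BHLHE40, also a HIF target, had 19, 17.9 and 17.5 against 155, 188 and 157 FPKM (3.13), PER1 3.3, 2.97 and 3.02 against 22.1, 24.9 and 21.4 (2.54) and NR1D1 rose from 7.08 to 23.4 FPKM. Over 15 clock genes 7 were called higher and 4 lower, with CRY1 (-1.01) lowest and its relative CRY2 higher (1.17). At 1 harvest per oxygen level a shift in clock time and a change in level cannot be told apart.

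Matrix genes were called in both directions. Of 16 collagen-modifying enzymes 7 were called higher and 5 lower. P4HA1, the proline hydroxylase of collagen, had 31.6, 28.5 and 31.4 FPKM in normoxia against 125, 131 and 130 in hypoxia (2.05), LOX, lysyl oxidase, 7.87, 6.69 and 7.39 against 29.7, 30.5 and 29.7 (1.90), and PLOD1 and PLOD2, lysyl hydroxylases, rose by 1.44 and 1.35. P3H4 fell by 0.93 and P4HA3 fell by 0.80. Among 26 integrins, laminins and collagens 5 were called higher and 9 lower, 5 and 15 without normoxia replicate 2, 6 and 6 under the median of ratios, and the median of -0.04 turned to 0.09 under the median of ratios. ITGA5, the alpha chain of the fibronectin receptor, had 29.1, 25.3 and 28 against 114, 119 and 108 FPKM (2.01), and ITGB4 rose by 1.18, while LAMB3, a laminin chain of the epithelial basement membrane, fell by 0.88. In the plasmin system PLAUR, the urokinase receptor, had 14.7, 15 and 13.7 against 84.2, 88 and 77.5 FPKM (2.44), whereas PLAU itself was under the filter. TIMP4, a metalloproteinase inhibitor, fell by 2.22. No matrix metalloproteinase beyond MMP15, MMP17, MMP24 and MMP28 was tested, and of these MMP24 rose (1.11).

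Cytoskeletal and junction genes gave a mixed epithelial picture. Of 7 tested keratins 4 were called lower and 1 higher, or 4 and 3 without normoxia replicate 2. KRT80 had 81.6, 79 and 86.3 FPKM in normoxia against 20.8, 17.5 and 17.9 in hypoxia (-2.08), KRT7 218, 282 and 225 against 127, 127 and 119 (-0.95), and KRT10 (-1.07) and KRT16 (-1.01) fell. KRT17 had 197, 250 and 192 against 431, 443 and 406 FPKM (1.01) and shares sequence with KRT16 and pseudogenes. KRT8 (0.13) and KRT18 (0.21) had overlapping groups. Of 19 desmosome and junction genes 10 were called higher and 4 lower, with JUP (0.89), PKP3 (0.91), DSG2 (0.83) and DSP (0.70) higher and TJP1 (-1.23) and CLDN1 (-1.01) lower, and CDH1 was under the filter at a level near 0. ELF3, an epithelial transcription factor, rose from 13.5 to 46.8 FPKM (1.72), and KLF4 fell by 0.96, in a squamous lineage list of which 8 of 24 members passed the filter. The mesenchymal list had 9 of 15 called higher and 1 lower (COL5A1). VIM, vimentin, had 254, 307 and 248 against 559, 543 and 544 FPKM (1.03), SNAI1 rose by 0.98 and TWIST1 by 0.66, and ZEB1 (-0.03), CDH2 (-0.12) and FN1 (0.05) were not called.

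Signalling genes moved one by one more than by pathway. Of 20 immediate early genes 7 were called higher and 5 lower, with FOS 15.2, 18.2 and 16.2 FPKM in normoxia against 59.8, 73.7 and 51.7 in hypoxia (1.83) against EGR1, and IER3 33.6, 42 and 34.2 against 135, 151 and 118 (1.85) against IER2 (-1.15). In the MAPK feedback list 9 of 17 were called lower and 4 higher. DUSP14 fell by 1.39, as did the ERK-responsive ETV5 (-0.90) and SPRED1 (-0.83), while DUSP5, a nuclear ERK phosphatase, rose from 12.6 to 39.7 FPKM (1.58). Of 19 YAP and TEAD pathway genes 7 were called lower and 5 higher, near the shares of all tested genes, and 10 and 6 without normoxia replicate 2. The targets CCN2 (15.7, 15.7 and 15.8 FPKM against 6.13, 3.12 and 4.09), CCN1, AMOTL2 and AJUBA fell, with changes of -1.66, -1.07, -1.93 and -2.36, whereas the target AXL rose by 0.69, and YAP1 itself had overlapping groups (-0.03). TGF-beta and activin genes had 11 of 24 lower and 3 higher. INHBE, an ATF4-linked activin subunit gene, fell from 20 ± 1.12 to 1.89 ± 0.294 FPKM, ID3 (-1.34) and the inhibitory SMAD6 (-1.14) fell too, and SMAD3 rose by 0.90. In the Notch list 8 of 14 were called higher and 2 lower, with RBPJ, NOTCH1 and NOTCH3 up by 0.93, 0.91 and 0.91, HES1 by 0.81, and the ligand JAG1 lower (-0.62).

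Secreted factors of blood vessels and inflammation were few. Of 9 tested VEGF, PDGF and angiopoietin-like genes 3 were called higher and 2 lower. ANGPTL4, an inhibitor of lipoprotein lipase, had 1.52, 1.73 and 1.5 FPKM in normoxia against 15.2, 18.6 and 14.1 in hypoxia (2.71), VEGFB and PDGFB rose by 0.49 and 0.40, FGF2 fell from 20.8, 15.9 and 23 FPKM to 3.62, 3.56 and 3.41 (-2.19), and PDGFRB fell by 0.59. PDGFA (0.07), NRP1 (-0.25) and FGFBP1 (-0.20) were not called. In the endothelin family EDN1 fell by 0.93 (25.5, 30.3 and 24.6 FPKM against 14.6, 12.4 and 13.7) while EDN2 rose, the receptor EDNRA fell by 0.72, and the processing enzyme ECE1 had overlapping groups (0.02). Among 9 EGF receptor genes ERBB3 (0.79) and the inhibitor ERRFI1 (1.16) rose, AREG (-0.79) and NRG1 (-0.60) fell, and EGFR (0.35), ERBB2 (-0.04), HBEGF (0.26), NRG4 (0.33) and LRIG1 (-0.19) were not called. Of 15 cytokine genes 6 were called lower and 5 higher. IL6 had 3.31, 3.42 and 3.16 FPKM in normoxia against 0.134, 0.311 and 0.21 in hypoxia and CXCL2 2.91, 3.77 and 2.74 against 0.336, 0.164 and 0.246, both low and lower still in hypoxia, while LIF rose by 0.92 and CCL28, a mucosal chemokine, by 1.26. Interferon-stimulated genes had 12 of 29 lower and 8 higher, near the shares of all tested genes (8 and 9 under the median of ratios). IFI35 (-1.44), IFIT2 (-1.40) and IFIT5 (-1.21) were lower and IRF7 (1.34) and OAS3 (1.02) higher. Antigen presentation genes had 4 of 14 lower and 3 higher, both under the shares of all tested genes (2 and 4 under that scaling). B2M (-0.38) was lower and TAPBP (0.63) and HLA-E (0.47) higher. HLA genes vary in sequence and share reads, so these values are uncertain.

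To see where this response differed from that of the other line, the interaction of line and oxygen was fitted over the 12 libraries and 12653 genes. limma called a difference for 63.3% of them, 36.0% with the response higher in KYSE150 and 27.3% with it lower. In KYSE410 the sample-sheet numbers of the labels separate normoxia (38 to 40) from hypoxia (56 to 58), whereas those of KYSE150 run on, so in KYSE410 oxygen and library set cannot be told apart, and the tables were deposited separately. Mitotic genes differed. Of 74 tested, 67 had a higher response in KYSE150 and 2 a lower one, with median changes of 0.99 in KYSE150 and -0.29 in KYSE410. The reverse held for cytosolic ribosomal proteins (78 of 79 with a lower response, medians 0.30 and 0.97) and for G1/S genes (4 of 50 higher and 41 lower, medians -0.13 and 0.52). Nuclear complex I genes had 25 of 37 with a lower response (medians -0.31 and 0.34). Without normoxia replicate 2 the KYSE150 medians were 0.84 for mitotic, 0.44 for cytosolic ribosomal protein, -0.12 for G1/S and -0.15 for complex I genes. The lists were not compared between lines without that library. Cholesterol genes had 23 of 29 with a higher response (medians 0.61 and -0.02) and histone and nucleic acid dioxygenases 20 of 23 (0.39 and -0.45). The classical HIF targets (15 higher and 8 lower of 33, medians 1.86 and 1.49) and glycolytic genes (7 and 8 of 22, medians 1.44 and 1.50) differed by gene rather than as a list.

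**Figure D5:**
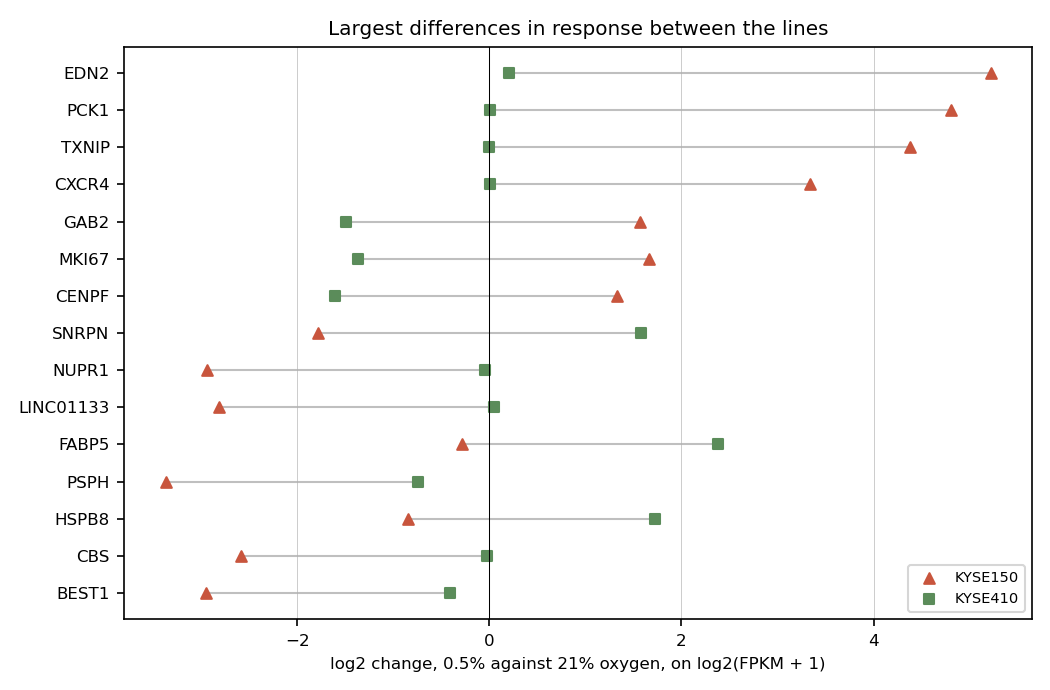
Log2 change in hypoxia on log2(FPKM + 1) in KYSE150 (triangles) and KYSE410 (squares) for 15 of the 16 genes with the largest difference, 8 in each direction, among genes with a called difference, a mean of 5 FPKM or more in KYSE150 and groups apart in KYSE150. EDN2, PCK1, TXNIP, CXCR4, NUPR1, LINC01133 and CBS lie at about 0 in KYSE410, and GAB2, MKI67 and CENPF have opposite signs.

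EDN2, PCK1, TXNIP, CXCR4, NUPR1, LINC01133, CBS and BEST1, 8 of the 16 genes with the largest differences, were under 1 FPKM in every KYSE410 library. GAB2, an adaptor of receptor signalling, MKI67, the proliferation antigen, and CENPF, a kinetochore gene, had positive changes in KYSE150 and negative ones in KYSE410. MKI67 had 18.6, 7.5 and 19.6 FPKM in KYSE150 normoxia and 47.1, 45.2 and 48.1 in hypoxia, against 27.8, 29.1 and 28.5 and then 11.3, 10.6 and 9.42 FPKM in KYSE410. Normoxia replicate 2 was again the lowest of its group for MKI67. HSPB8, a small heat shock protein gene, and SNRPN had negative changes in KYSE150 (-0.85 and -1.78) and positive ones in KYSE410 (1.72 and 1.58). PSPH had changes of -3.37 and -0.74, and FABP5, a fatty acid carrier gene, had a change of -0.28 against 2.38. SNRPN overlaps SNURF, and FABP5 and PSPH have near-identical copies, so their reads may be shared.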

How the data were processed

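Poly(A) RNA of KYSE150 and KYSE410 was sequenced in 12 libraries, 3 for each line and oxygen level. The authors deposited 1 table per line. Its values were read as FPKM, since no source used here names the unit, and multiplied by transcript length they sum to about the total that this unit gives. bcl2fastq 2.20, fastp 0.22.0, HISAT2 2.2.1 and the build hg38 are named, without roles, per the submitters' processing notes. Not given in the sources used here are the quantifier, its annotation and whether it used strand. Low values showed no steps of single reads, so read depth is unknown and the counting error of a gene cannot be given. The spread between libraries is the only measure of precision used here. Each table column matched 1 sample label, and 0 columns were of no sample.

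The deposited values were taken to log2 after a pseudocount of 1, which understates changes of genes with low levels. Genes at 1 FPKM or more on average were tested with limma 3.58.1 (R 4.3.3) with a mean trend and Benjamini-Hochberg adjustment at 0.05, over the 6 KYSE150 libraries. Errors are SE for changes and SD for levels, with n = 3 libraries per group. The response of the lines was compared by the interaction of line and oxygen over 12 libraries. Summaries and plots used Python 3.11.15, pandas 2.3.3, numpy 2.4.6 and matplotlib 3.10.9. The fits were tested on simulated data. Coordinates and transcript lengths come from GENCODE 29 on hg38, matched by symbol for 95.2% of tested genes, and promoters from RefSeq on GRCh38.p14. Motif strings were sought on both strands of 250 upstream bases.

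The comparison and the 68 gene lists, of whose 1712 genes 1668 were in the table, were chosen with earlier results of these data known. Named genes are the 12 largest called rises and falls at 5 FPKM or more on average without overlap, up to 4 called members per list with the largest changes, every member of lists with at most 12 members, members that went against most of their list, a preset set of marker and target genes, and the 8 largest differences between lines each way. Other named genes were chosen after their values were seen. A few genes chosen this way were left unreported. Alternatives were other pseudocounts, filters, scalings, thresholds and weights, removal of a length and GC trend, a replicate block and leaving out each library. A correction of normoxia replicate 2 alone for its length and GC trend was added after seeing the data. Replicate numbers did not pair the libraries.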

Additional observations from a re-analysis of the deposited data

Results flagged for a closer look

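The change in hypoxia differed between KYSE150 and KYSE410 in limma's test of the interaction of line and oxygen over 12 libraries for the genes named here, with adjusted p between 1.39e-10 and 1.17e-04. Values are the log2 change in KYSE150 minus that in KYSE410. The response was higher in KYSE150 for EDN2 (5.01), PCK1 (4.81), TXNIP (4.38), CXCR4 (3.33), GAB2 (3.06), MKI67 (3.04) and CENPF (2.95). It was lower for SNRPN (-3.36), NUPR1 (-2.89), LINC01133 (-2.86), FABP5 (-2.66), PSPH (-2.63), HSPB8 (-2.56), CBS (-2.56) and BEST1 (-2.54). EDN2, PCK1, TXNIP, CXCR4, NUPR1, LINC01133, CBS and BEST1 were under 1 FPKM in every KYSE410 library, where the scale holds the change near 0, so their differences largely restate the change in KYSE150. For each of the 15 genes all 3 hypoxia libraries of KYSE150 lay on the same side of its 3 normoxia libraries, which was a condition of the choice. In KYSE410 the library sets at the 2 oxygen levels carry separate sample-sheet numbers, so oxygen and library set cannot be told apart there. SNRPN had the widest spread, with an SE of 0.50 for the difference, and MKI67 and CENPF had their lowest KYSE150 normoxia value in replicate 2.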

How the results depend on the processing

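The count of genes called lower was 3253 with the filter raised to 5 FPKM, where fewer genes are tested. The count lower by at least 1 was 1510 with a pseudocount of 0.1, which widens changes of low genes, and 619 with the length and GC trend removed, a change whose cause was not tested. With that trend removed, 72 of 79 cytosolic and 20 of 79 mitochondrial ribosomal protein genes were called higher. The share of calls that were higher, 37.7% as reported, was 51.2% under the median of ratios, 49.2% under quantile normalization (3926 higher and 4049 lower) and 49.9% with the length and GC trend removed (4193 and 4214). Leaving out 1 library at a time gave 2474 to 3626 genes higher and 4131 to 5809 lower, 551 to 618 higher by at least 1 and 951 to 1020 lower by at least 1. It gave 4203 to 4909 genes with a higher and 3214 to 3767 with a lower response in KYSE150 than in KYSE410, and a common sum gave 6030 and 2353. The highest counts of genes higher (3626) and lower (5809) were those without normoxia replicate 2. Same-numbered libraries did not deviate together (r of -0.0681, 0.0404 and 0.0596, against -0.0996 to 0.107 for other pairs), and a replicate block gave 2922 higher and 4835 lower. Of 474 genes named here or taken by the naming rule (416 at the filter of 5 FPKM), 0 to 36 lost and 0 to 21 gained a call in a single alternative, and 0 of those called changed sign. Read depth is unknown, so the counting error of genes near 1 FPKM cannot be given.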
